A study of Mus musculus with 4 samples.

Results

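The 8 mouse genes Irf1, Irf2, Irf3, Irf4, Irf5, Irf7, Irf8 and Irf9 encode interferon regulatory factors, and accessible chromatin around them was compared in fetal γδ thymocytes with and without the transcription factor c-Maf. Accessibility was read from Omni-ATAC-seq, which uses the transposase Tn5 to insert sequencing adapters where chromatin is open. Peaks of the 4 libraries that overlapped by at least 1 bp on chromosomes 1 to 19 and X were merged into regions, and a region belonged to an Irf gene when that gene was the nearest protein-coding gene body within 100 kb. Of 171490 merged regions, 122 met this rule. The cells were CD4-, CD8-, CD3e+, TCRγδ+, CD24+ thymocytes low for CD45RB, sorted from pooled fetuses at embryonic day 17 to 18 on a C57Bl/6 background (N5 backcross). All fetuses carried Il7r-Cre, which is active in lymphoid cells. The WT group was Maf+/+ Il7r-Cre and the KO group Maf fl/fl Il7r-Cre, with 2 libraries each, called WT 1, WT 2, KO 1 and KO 2 by the replicate numbers of the labels. The labels do not say whether libraries of 1 genotype came from separate pools, and their spread may thus be technical only. With 2 libraries against 2, the smallest 2-sided exact permutation p is 0.333, so no difference between genotypes described here could pass 0.05.

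Interferon regulatory factors share an N-terminal DNA-binding domain that recognises GAAA repeats. Irf3 and Irf7 are switched on by sensors of foreign nucleic acid and induce interferon genes. Irf9 gives DNA specificity to the complex that answers type I interferon, Irf1 is an interferon-induced activator, and Irf2 competes with Irf1 at the same sites. Irf5 acts downstream of Toll-like receptors in myeloid and B cells. Irf4 and Irf8 are largely restricted to blood cells and bind DNA with partners of the ETS and AP-1 families. Irf4 is induced by antigen receptor signals and is needed for helper T cells that make IL-17, while Irf8 directs the development of dendritic cells, monocytes and B cells.

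The peak lists held 102718 to 132179 peaks per library. The WT 1 list was the shortest, and in the 78650 regions called in all 4 libraries its median fold enrichment was 7.34, against 9.75 to 11.2 in the other libraries. Fold enrichment is the summit of a peak over the local background of its own library, so folds are given as description only. For comparisons, each of those 78650 regions was given a percentile among them by its highest fold in each library. A percentile of 100 is the most enriched. At the targeted gene, within 1 kb of either end of Maf, WT 1 and WT 2 each had 3 peaks, the highest at a fold of 17.25 and 15.47, and KO 1 and KO 2 had 0. Inside the Maf gene body, WT 1 had 2 peaks and WT 2, KO 1 and KO 2 had 1 each. In KO cells, deleted DNA and closed chromatin cannot be told apart there. The T cell identity of the sort was visible at gene starts. All 9 T cell markers found in the gene table (Cd3e, Cd3d, Cd3g, Cd247, Thy1, Lck, Lat, Ptprc and Cd2; Trdc is the tenth of the list) had a peak at a gene start or end in every library. In no library was there a peak at the start of the B cell genes Pax5, Ebf1, Cd79a and Cd22, the myeloid genes Csf1r, Mpo, Csf3r, Lyz2, Elane and Cebpe, or the dendritic cell genes Siglech, Zbtb46, Xcr1, Clec9a and Cd209a. Of the 8 myeloid markers 1, 2, 2 and 1 had a peak in WT 1, WT 2, KO 1 and KO 2, of the 8 dendritic cell markers 2 did in every library, and of the 8 B cell markers 1, 2, 2 and 2 did. The open ones were Cd79b, Itgam and Itgax in all 4 libraries, Batf3 in 3, Ms4a1 and Adgre1 in 2, and Blnk and Ly6d in 1. Of all start windows of protein-coding genes (defined below), 52.8%, 55.2%, 55.1% and 54.7% had a peak in WT 1, WT 2, KO 1 and KO 2. Marker regions called in every library had median KO minus WT differences of −2.92 points (T cell), 2.62 (B cell), 2.3 (myeloid) and 0.69 (dendritic cell). Of 96 T cell marker regions, 19 were higher in WT and 8 in KO without overlap. The same counts were 2 and 5 of 35 for B cell, 5 and 6 of 18 for myeloid and 2 and 4 of 26 for dendritic cell markers. Over the genome the shares were 18.1% (WT higher) and 18.6% (KO higher). Of 30 myeloid marker regions called in at least 2 libraries, 0 were called in both WT libraries alone and 3 in both KO libraries alone. The counts were 0 and 2 of 40 for dendritic cell, 2 and 2 of 48 for B cell and 3 and 5 of 138 for T cell markers. For an erythroid list they were 2 and 0 of 19, and for a stroma and epithelium list 5 and 8 of 81. Over the genome the shares were 2.89% (WT) and 4.34% (KO).

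By the most enriched start region of each gene, the Irf genes fell into a well-enriched set and a weakly enriched one. The windows below run from 250 bases before to 50 bases after a RefSeq start (GRCm38.p6) and are printed 5′ to 3′ on the strand of the gene. The Irf8, Irf1 and Irf2 windows shown are open in every library and hold one of the motifs searched. Irf4 and Irf5 are shown because their best start regions were the least enriched of the 8 genes. Capitals mark matches, on either strand, to an IRF pair (GAAA, any 2 bases, GAAA), an ETS-IRF composite (GGAA, any 2 bases, GAAA), the STAT element TTCNNNGAA, the AP-1 element TGANTCA or the MAF site TGCTGA.
Irf8, chr8:120736108-120736407, + strand: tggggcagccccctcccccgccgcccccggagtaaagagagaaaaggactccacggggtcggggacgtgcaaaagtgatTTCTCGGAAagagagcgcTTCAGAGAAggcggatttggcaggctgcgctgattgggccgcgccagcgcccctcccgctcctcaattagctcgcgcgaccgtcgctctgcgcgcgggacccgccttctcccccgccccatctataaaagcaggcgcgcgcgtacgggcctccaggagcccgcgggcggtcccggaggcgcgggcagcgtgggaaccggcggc
Irf1, chr11:53769764-53770063, + strand: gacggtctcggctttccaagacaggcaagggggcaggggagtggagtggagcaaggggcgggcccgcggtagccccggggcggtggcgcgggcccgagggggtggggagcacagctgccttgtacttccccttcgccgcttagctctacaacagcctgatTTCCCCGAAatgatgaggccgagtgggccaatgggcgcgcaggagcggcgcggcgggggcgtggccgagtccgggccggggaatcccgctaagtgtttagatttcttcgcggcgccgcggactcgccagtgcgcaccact
Irf2, chr8:46739495-46739794, + strand: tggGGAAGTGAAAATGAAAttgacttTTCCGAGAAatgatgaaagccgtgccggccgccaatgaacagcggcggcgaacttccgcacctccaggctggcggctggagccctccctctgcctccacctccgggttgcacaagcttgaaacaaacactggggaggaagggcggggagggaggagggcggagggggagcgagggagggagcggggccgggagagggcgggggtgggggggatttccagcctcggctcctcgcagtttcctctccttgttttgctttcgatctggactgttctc
Irf4, chr13:30748983-30749282, + strand: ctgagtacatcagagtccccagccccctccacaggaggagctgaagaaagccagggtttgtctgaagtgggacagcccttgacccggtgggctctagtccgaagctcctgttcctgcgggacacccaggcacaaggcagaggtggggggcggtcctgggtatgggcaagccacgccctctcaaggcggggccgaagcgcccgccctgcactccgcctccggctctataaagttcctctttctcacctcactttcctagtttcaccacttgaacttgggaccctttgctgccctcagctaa
Irf5, chr6:29526375-29526674, + strand: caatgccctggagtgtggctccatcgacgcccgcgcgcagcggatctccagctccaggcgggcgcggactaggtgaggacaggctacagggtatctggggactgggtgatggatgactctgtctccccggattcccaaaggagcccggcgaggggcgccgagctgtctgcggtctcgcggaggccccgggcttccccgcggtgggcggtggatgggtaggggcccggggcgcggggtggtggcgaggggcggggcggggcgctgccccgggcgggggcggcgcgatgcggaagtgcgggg

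The Irf2 window held an IRF pair at bases 10 to 19 that overlaps an ETS-IRF composite at bases 4 to 13, and a STAT element at bases 27 to 35. These matches lie at the far upstream edge of the window. Irf8 had STAT elements at bases 80 to 88 and 98 to 106, and Irf1 had 1 STAT element, in capitals above. A second Irf8 window, chr8:120738389-120738688, held the MAF site at bases 94 to 99, and no library had a peak there. No AP-1 element was found in the 11 windows of the 8 genes. Of 21045 windows of protein-coding genes, 3.38% hold the IRF pair, 2.55% the composite, 7.76% the STAT element, 7.04% the AP-1 element and 18.1% the MAF site, so 1, 1, 3, 0 and 1 of 11 windows are descriptions of these letters only. The Irf5 window is rich in CpG, with 35 CpG dinucleotides against a median of 13 over all windows, and the Irf4 window has 11.

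Irf9, Irf8, Irf1 and Irf3 had the most enriched starts. At the start of Irf9, in chr14:55603905-55604554, the percentile was 94.5 in WT 1, 95.7 in WT 2, 93.8 in KO 1 and 94.2 in KO 2. The genotypes did not overlap, but the KO minus WT difference of means was only −1.10 points. The Irf8 start (chr8:120736009-120736430) stood at 95.7, 94.0, 96.1 and 94.3 in the same order, and the genotypes overlapped. At Irf1 (chr11:53769777-53770093) the percentiles were 96.6, 89.9, 93.7 and 91.6, again overlapping. A second Irf1 start region, chr11:53770243-53770444, was weak. It had no peak in WT 1 and a fold of 3.52 in WT 2, 3.53 in KO 1 and 3.32 in KO 2. At Irf3 (chr7:44997204-44998133) the percentiles were 91.5, 93.8, 87.7 and 93.8. This region also lies in the body of the neighbouring gene Bcl2l12, so it belongs equally to both genes. These 4 genes include the interferon-response factor Irf9 and the latent sensor-activated factor Irf3, and neighbours in the order did not differ beyond the spread of the libraries.

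The Irf2 and Irf7 starts came next. The Irf2 start (chr8:46739392-46739872) had percentiles of 87.2 in WT 1, 84.1 in WT 2, 85.4 in KO 1 and 88.1 in KO 2. The Irf7 start (chr7:141266361-141266628) had 77.1, 73.8, 75.7 and 73.8. For comparison, the median start region of protein-coding genes called in all 4 libraries stood at 79.3 to 82.3. Irf2 was thus above and Irf7 below that median in every library, and neither start separated the genotypes. The Irf4 start (chr13:30748947-30749428) was far lower, at 17.2, 11.2, 6.63 and 19.9, with overlapping genotypes. Its fold enrichment was 4.54, 5.10, 4.32 and 6.65. The Irf5 start (chr6:29526456-29526788) had no peak in WT 1 and a fold of 6.50 in WT 2, 6.80 in KO 1 and 6.10 in KO 2. Both starts were called in both KO libraries.

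**Figure D1:**
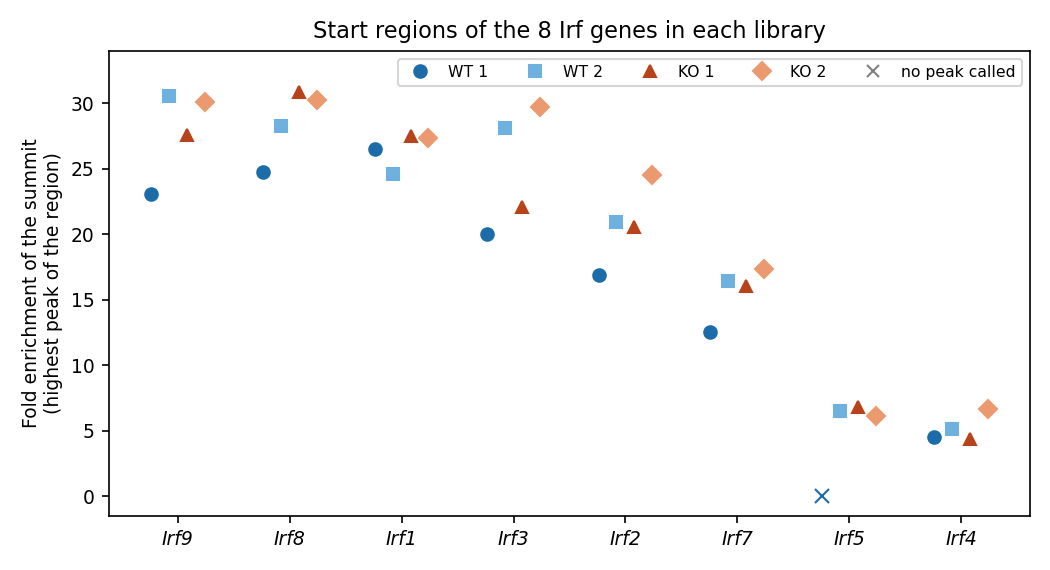
Fold enrichment of the highest peak (y axis) of the most enriched start region of each Irf gene (x axis), 1 point per library and a cross where no peak was called. Irf9 to Irf7 lie above 12 in every library, Irf5 and Irf4 below 7, and WT 1 has no peak at Irf5.

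Few regions at Irf genes were called in both libraries of 1 genotype and in neither of the other. Most of these lay at Irf5 and at Irf2, the gene with the most regions. Per library, 85 (WT 1), 104 (WT 2), 93 (KO 1) and 86 (KO 2) of the 122 regions were called. WT libraries averaged 94.5 ± 13.4 regions and KO libraries 89.5 ± 4.95 (SD, n = 2 per genotype), with overlapping genotypes (2-sided exact permutation p = 1). With equal numbers of peaks per library the genotypes did not overlap (KO minus WT −6 regions, exact permutation p = 0.333, the smallest possible), and 9 regions were WT-only and 2 KO-only under the definition given next. In all, 60 regions (49.2%) were called in every library, against 45.9% of all merged regions. Of the 122, 24 were called in 3 libraries, 18 in 2 and 20 in 1. Of all 171490 merged regions the counts were 21031, 22826 and 48983. The most frequent incomplete pattern was a call in all but WT 1, with 12 regions. Over the genome this pattern had 12992 regions, and a call in KO 1 alone, with 17310, was the most frequent. Among the 102 regions called in at least 2 libraries, 6 (5.88%) were WT-only, meaning a peak in each WT library and in no KO library. The share over all 122507 such regions was 2.89%. A single Irf region (0.980%) was KO-only, against 4.34% over the genome. No test of the list was made, and the balance turned under a stricter call (−log10 q of 5 or more), which left 3 regions WT-only and 4 KO-only. It also turned without WT 2, the longest list, where the counts were 11 (WT-only) and 14 (KO-only). KO libraries then had 5.5 more called regions than WT 1. Genome shares were not computed with equal numbers of peaks, under the stricter call or without WT 2, so these counts have no background beside them.

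**Figure D2:**
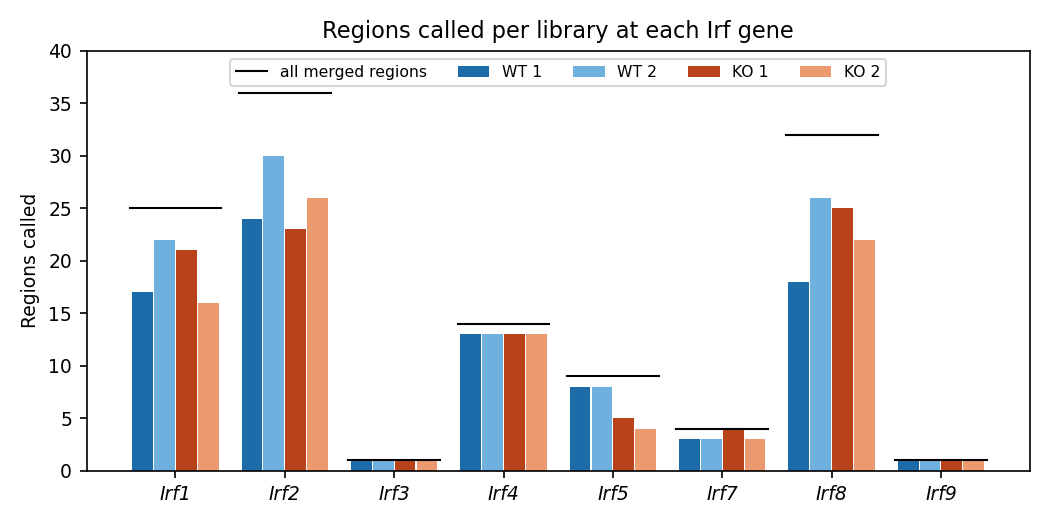
Number of regions called (y axis) at each Irf gene (x axis) in each library, as bars, with a line at the number of merged regions. At Irf5 both WT bars reach 8 and the KO bars 5 and 4, while at the other genes with over 10 regions the genotypes overlap or are equal.

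Irf5 was the Irf gene whose calls differed most between the genotypes. It lies at 29526130 to 29541869 on chromosome 6 and had 9 regions, 7 of them inside the gene body. WT 1 and WT 2 each had a peak in 8 of them, KO 1 in 5 and KO 2 in 4. The genotypes did not overlap. A gap of at least 3 regions between the lower WT and the higher KO library occurred in 0.0940% of all 7444 genes that had 5 to 15 merged regions, and the reverse gap in 0.349%. This rule was chosen after the values were seen. Its gap of 3 equals that of Irf5, which is itself among the genes counted, so the share is a description and not a test. Irf5 did not meet the rule when a call needed a −log10 q of 5 or more, with 5 and 8 calls in WT and 4 and 3 in KO.

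Both WT-only regions of Irf5 lay near its 3′ end, 13.6 and 14.2 kb from the gene start. The stronger one, chr6:29540215-29540513, had a fold enrichment of 7.05 in WT 1 and 15.3 in WT 2 (−log10 q 10.8 and 38.3), and no peak in either KO library. By the lower −log10 q of the pair it ranked 200 among the 3542 WT-only regions of the genome. It was 299 bp wide, more than the median WT-only region. The weaker one, chr6:29539598-29539787, had a fold of 4.77 in WT 1 (−log10 q 4.995) and 8.52 in WT 2 (−log10 q 15.3). When a call needed 5 or more, the stronger region was still WT-only and the weaker one was not, its WT 1 value being just under 5.

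The rest of the Irf5 locus leaned the same way. A region at chr6:29517245-29517431, 8.70 kb upstream, was called in all 4 libraries, with percentiles of 69.7 and 64.1 in WT and 46.4 and 46.0 in KO. Both WT libraries were higher, with a KO minus WT difference of −20.7 points. KO 2 lacked 2 further regions that the other libraries had, chr6:29528033-29528204 and chr6:29536889-29537064, and KO 1 lacked chr6:29528642-29528811. The only Irf5 region called in both KO libraries but not in both WT libraries was the start, which WT 1 lacked. The other region called in all 4 libraries, chr6:29530220-29530346, overlapped between genotypes, and chr6:29523031-29523139 was called in WT 1 alone. With equal numbers of peaks per library, 8 and 8 regions were called in WT and 4 and 4 in KO. The part of read depth in this difference was not tested. B cells and myeloid cells also use Irf5, and the part of such cells, whose markers are given above, was not tested either.

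**Figure D3:**
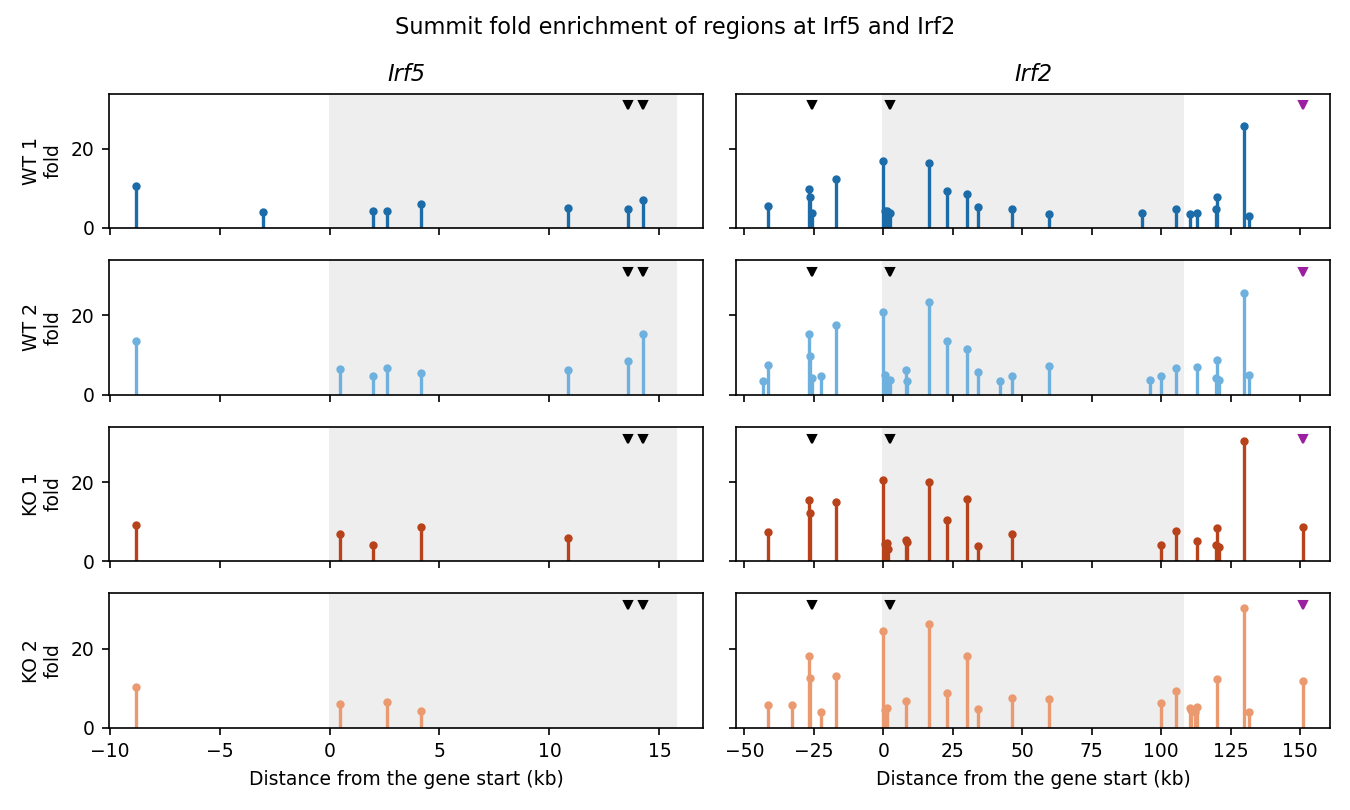
Fold enrichment of each region (y axis) by distance of its centre from the gene start in kb (x axis) at Irf5 and Irf2, 1 row per library, with the gene body shaded. Black triangles mark WT-only regions and the purple triangle the KO-only region, where the rows of the other genotype hold no peak.

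Irf2, the antagonist of Irf1, had the most regions, 36, of which 18 lay inside its long gene body. Calls numbered 24, 30, 23 and 26 in WT 1, WT 2, KO 1 and KO 2, with overlapping genotypes. It carried the one KO-only region, chr8:46890622-46890788, 43.2 kb beyond the 3′ end. The fold there was 8.53 in KO 1 (−log10 q 12.0) and 11.9 in KO 2 (−log10 q 19.9), and neither WT library had a peak. By the lower −log10 q it ranked 21 among the 5311 KO-only regions of the genome. Both WT-only regions of Irf2 were narrow and weaker. chr8:46714037-46714155, 25.6 kb upstream, reached −log10 q values of 3.18 (WT 1) and 4.93 (WT 2). The other, chr8:46741948-46742063, 2.26 kb inside the gene, reached 5.32 and 6.88. The strongest Irf2 region was downstream, at chr8:46869456-46869844, with percentiles of 96.2, 91.4, 95.9 and 94.5 in WT 1, WT 2, KO 1 and KO 2, above those of the Irf2 start in every library. Its genotypes overlapped.

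Inside and upstream of Irf2, regions called in every library moved in both directions. At 30.0 kb inside the gene, chr8:46769563-46769841 had percentiles of 59.2 and 54.7 in WT and 74.8 and 75.9 in KO. A few kb on, at chr8:46773664-46774106, the order was reversed, with 27.9 and 15.0 in WT and 3.85 and 6.81 in KO. The peaks there covered 317 and 443 bp in WT and 83 and 239 bp in KO. The genotypes did not overlap in either region. KO was also higher at chr8:46785799-46786000 (means of 13.5 in WT and 28.2 in KO) and at chr8:46844765-46845395 (21.5 and 37.3). WT was higher at chr8:46762266-46762982 (63.9 and 44.8) and, upstream, at chr8:46722539-46723056 (76.4 and 66.1).

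Irf4, a factor induced by T cell receptor signals, had similar numbers of calls in all libraries. Each library had a peak in 13 of its 14 regions, and 12 were called in all 4. The others were chr13:30740956-30741220, which WT 2 lacked, and chr13:30750623-30750707, called in WT 2 alone. None was WT-only or KO-only. The strongest was inside the gene, 11.4 kb from the start, at chr13:30760279-30760985. Its percentiles were 88.7, 86.0, 87.2 and 86.7 in WT 1, WT 2, KO 1 and KO 2, so the weak start stood beside a strong internal region. The peaks there covered 673 and 707 bp in WT and 474 and 480 bp in KO, without overlap. Upstream by 15.9 kb, chr13:30733231-30733366 was higher in KO, at 63.5 and 65.6 against 35.4 and 49.9 in WT. Next to the start, at chr13:30748456-30748680, it was WT that was higher, at 32.1 and 19.6 against 8.30 and 4.62 in KO.

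Irf8, which is best known from dendritic cells, monocytes and B cells, had 32 regions, 22 of them downstream of the gene and up to 95.6 kb away. The next region nearest to an Irf gene lay 109 kb away, outside the limit. Calls numbered 18, 26, 25 and 22 in WT 1, WT 2, KO 1 and KO 2, and the genotypes overlapped. The strong downstream region chr8:120828346-120828592, 71.7 kb from the gene, stood at percentiles of 93.4, 90.6, 87.9 and 92.9, which overlapped between genotypes. Without overlap, 3 Irf8 regions were higher in WT and 2 in KO. The KO-higher ones lay downstream, at chr8:120796277-120796541 and chr8:120804425-120804585, with KO minus WT differences of 9.12 and 5.52 points. The gaps of at least 10 points were upstream. At chr8:120716421-120716882, 19.5 kb before the gene, the percentiles were 48.5 and 44.8 in WT and 16.7 and 18.0 in KO, the widest gap of the 60 Irf regions called in all 4 libraries (−29.2 points, KO minus WT). The peaks there covered 282 and 462 bp in WT and 105 and 243 bp in KO. At chr8:120725141-120725585, 10.8 kb before the gene, they were 69.9 and 66.1 in WT and 52.7 and 57.3 in KO. The single WT-only region of Irf8, chr8:120763393-120763545, was weak (−log10 q 1.85 in WT 1 and 4.41 in WT 2). The part of other cells in the Irf8 differences was not tested; dendritic cell and myeloid markers are given above with the other marker lists.

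**Figure D4:**
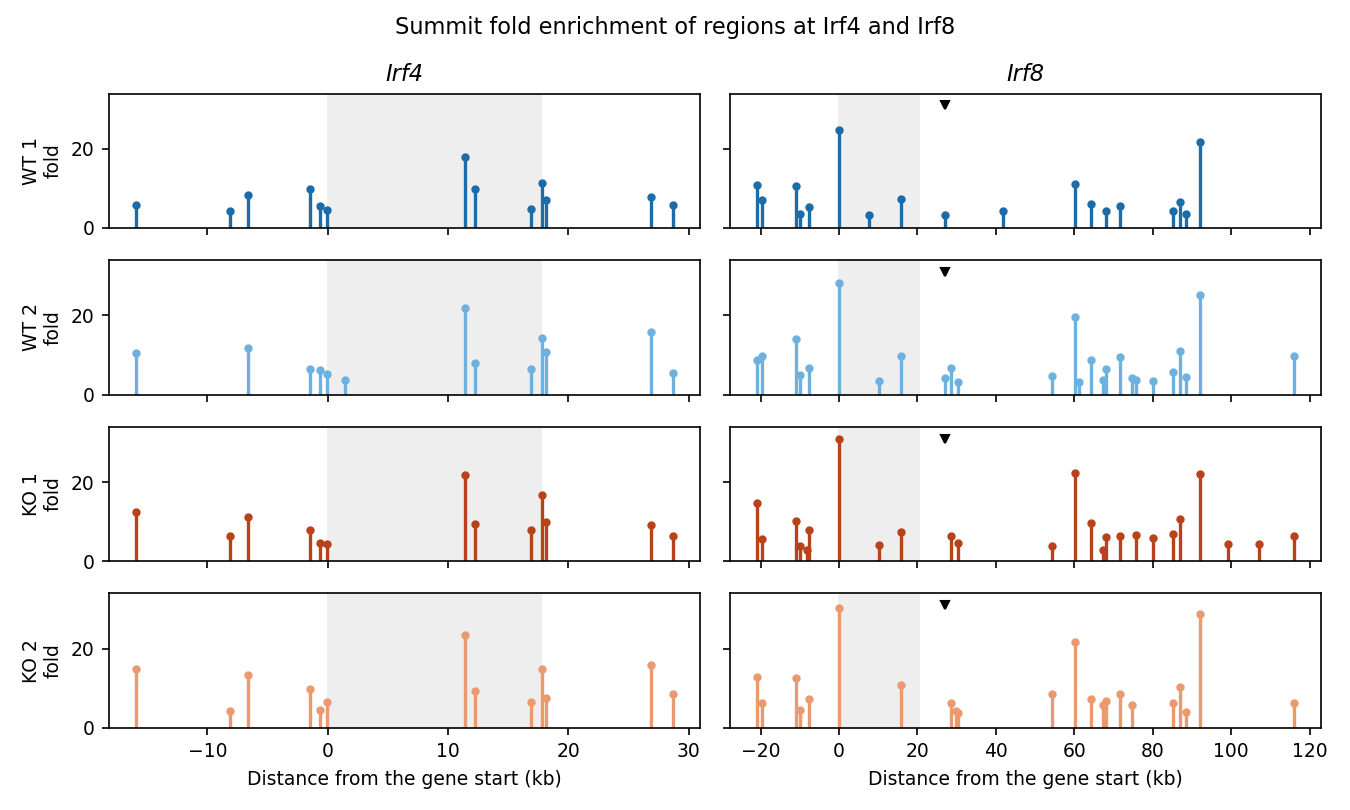
Fold enrichment of each region (y axis) by distance of its centre from the gene start in kb (x axis) at Irf4 and Irf8, 1 row per library, with the gene body shaded and a black triangle at the WT-only region of Irf8. The tall regions of both genes stand in every row.

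The remaining genes differed little. Irf1, the interferon-induced activator, had 25 regions, called 17, 22, 21 and 16 times in WT 1, WT 2, KO 1 and KO 2. Its WT-only region, chr11:53770709-53770820, lay 0.75 kb inside the gene and was weak (−log10 q 4.45 in WT 1 and 7.61 in WT 2). At chr11:53763366-53764147, 5.87 kb upstream, WT was higher, at 73.8 and 73.0 against 65.7 and 60.2 in KO. Irf7 had 4 regions and Irf3 and Irf9 had 1 each. In Irf7, chr7:141265041-141265371 was its strongest region in all libraries but WT 1, where the start was stronger, and it was higher in KO, at 84.5 and 80.7 against 75.9 and 75.2 in WT, a difference of means under 10 points.

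Over all 60 Irf regions called in every library, rank differences were about the size seen over the genome. The median KO minus WT difference was −0.47 points, against −0.05 points over all 78650 such regions. In 11 Irf regions (18.3%) both WT percentiles lay above both KO percentiles, against 18.1% over the genome, and in 10 (16.7%) the reverse held, against 18.6%. With means at least 10 points apart, 8 regions (13.3%) were higher in WT and 4 (6.67%) in KO, against 11.0% and 11.2%. These 12 regions are those named above by their percentiles in Irf1, Irf2, Irf4, Irf5 and Irf8. Peak widths gave the same picture. The median log2 ratio of the base pairs covered in KO over WT was 0.02 at Irf regions and 0.03 over the genome. WT peaks were wider without overlap in 7 Irf regions (11.7%) and KO peaks in 9 (15.0%), against 12.5% and 17.2%. Most of these shares lie near the background. The share higher in KO by at least 10 points was below it, but it rests on 4 regions and was not tested.

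**Figure D5:**
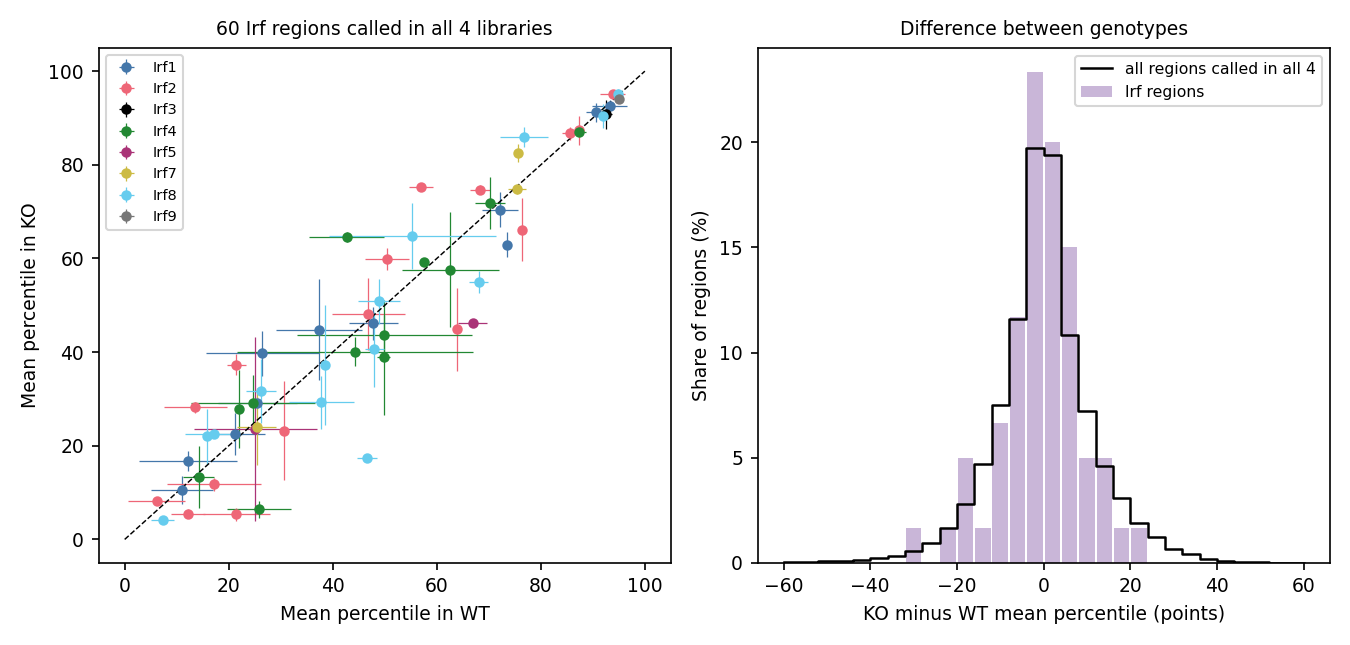
Left, mean percentile in KO (y axis) against WT (x axis) for the 60 Irf regions called in all 4 libraries, coloured by gene, with bars from the lower to the higher library of each genotype and a dashed line of equality. Right, share of regions in percent (y axis) by KO minus WT difference in points (x axis) for Irf regions (bars) and all 78650 regions (line), where both are centred near 0.

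Over the full list of other interferon pathway genes, calls in 1 genotype alone were about as frequent as over the genome or less so. Of 59 listed genes 57 were found in the gene table (Mx1 and Mx2 are the others), and a region tied between genes counted for each. Over the list, 14 of 478 regions called in at least 2 libraries were WT-only (2.93%) and 15 were KO-only (3.14%), against 2.89% and 4.34% over the genome, and 40 of the 57 genes had neither. Among receptors and their kinases there were 6 WT-only and 8 KO-only regions (5.06% were KO-only). Ifnar1, a chain of the type I interferon receptor, had 3 of the KO-only ones and 0 WT-only, and the kinase Jak1 had 1 region of WT alone and 2 of KO alone. Ifngr1 and Ifnlr1, receptor chains for type II and type III interferon, had 1 of each kind. Among the sensors and kinases that activate Irf3 and Irf7 there were 3 WT-only and 2 KO-only regions of 92 (3.26% and 2.17%). Tbk1, which phosphorylates Irf3, had 1 of each, Traf3 and Tmem173 (the adaptor STING) had 1 WT-only region each, and the endosomal sensor Tlr7 had 1 KO-only region.

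Over 20 interferon-induced target genes, 2 of 67 regions were WT-only (2.99%) and 1 was KO-only (1.49%), against 2.89% and 4.34% over the genome. Usp18, a brake on interferon receptor signals, had 1 of each and the immunoproteasome gene Psmb9 had 1 WT-only region. Starts or ends of 15, 17, 17 and 16 of these 20 genes had a peak in WT 1, WT 2, KO 1 and KO 2. Of all windows of protein-coding genes, 52.8%, 55.2%, 55.1% and 54.7% had a peak in the same libraries. Oas1a, Oasl1 and Ifi44 had none in any library. At binding partners and co-repressors, the counts were 3 (WT-only, 1.86% of regions) and 4 (KO-only, 2.48%). Of the IRF2-binding co-repressors, Irf2bpl had 2 regions of WT alone and 1 of KO alone among 28 called in at least 2 libraries, and Irf2bp2 had 0 and 2 among 41. Ikzf1, which encodes Ikaros, had 1 WT-only region, and Spi1, the ETS factor PU.1 that binds DNA with Irf4 and Irf8, had 1 KO-only region.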

How the data were processed

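Omni-ATAC-seq was run on nuclei of sorted cells, with 9 to 11 PCR cycles, per the labels' protocols. Tools named in the submitters' processing notes are MACS2 2.1.1, Bowtie2 2.3.4.1, deepTools 3.1.2, bedtools, Picard, cutadapt and Trim Galore, with mm10 and GRCm38 as builds. Tool roles, any Tn5 shift, duplicate handling and peak settings: not given in the sources used here. Peaks had been called per library, 1 deposited list each. The deposited fold (column 7, a ratio of summit to local background), the −log10 p and −log10 q and the score (10 times the −log10 q) are the authors' values and served only to rank, describe or filter peaks within a list, and every list ends at a q of 0.1. Read depth was not analysed here and is unknown, so a missing call does not show closed chromatin. Peaks just past the limit (−log10 q under 1.5) had a median fold of 3.11, 2.94, 3.20 and 2.94 in WT 1, WT 2, KO 1 and KO 2.

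Regions were merged and assigned with Python 3.11.15, pandas and numpy, using RefSeq genes and windows of GRCm38.p6. A region inside several gene bodies counted for each. For genes with no window, peaks within 1 kb of either gene end counted. The nearest gene need not be the gene a region acts on. Members, lists and rules were chosen with earlier results of these data known. Regions were named if WT-only or KO-only, at a gene start, the strongest of their gene, or separated between genotypes by at least 10 points. A few others were named after their values were seen. From the pathway list, up to 4 genes per role with the most such regions were named, ties by alphabet. The steps were tested on simulated data. Alternatives were a −log10 q of at least 5, equal numbers of peaks, 20 kb, 0.5 of a region covered, ranking by −log10 q or within the whole list, a block on replicate number and each library left out.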

Additional observations from a re-analysis of the deposited data

How the results depend on the processing

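With a −log10 q of at least 5, WT-only regions were 3, KO-only regions 4 and the difference in called regions (KO minus WT mean) 4, against 6, 1 and −5. KO-only regions numbered 2 with equal numbers of peaks, 0 within 20 kb and 5 with 0.5 of a region covered, where the difference in called regions was 0. Within 20 kb, 6 regions were higher in KO without overlap, against 10. With a block on replicate number, 13 and 16 regions were lower and higher in KO in both pairs; the labels do not say that a number marks a shared source, and the correlation of replicate deviations between genotypes was 0.116, so the pairing was not used. WT-only and KO-only counts are the same regions under the block. In the settings run, the median rank difference and the median log2 width ratio moved by less than the replicate spread (SD 3.27 points and 0.145). The counts were not compared with a replicate spread. Each library left out in turn gave 11 to 13 WT-only and 2 to 14 KO-only regions, 20 to 25 regions higher in WT and 15 to 28 higher in KO, as 3 lists meet the rule more easily than 4, and a difference in called regions of −14.5 to 5.5, which turned positive (5.5) without WT 2. Without WT 2, KO-only regions (14) outnumbered WT-only ones (11). Of the 12 named rank differences, 12 stayed without overlap when ranked by −log10 q and 11 within the whole list. For Irf5, an addition after the data were seen, both WT libraries kept more calls than both KO libraries under 3 changed call rules. The calls were 5 and 8 (WT) against 4 and 3 (KO) under the stricter −log10 q, and 8 and 8 against 4 and 4 with equal numbers of peaks. They were 8 and 8 against 5 and 4 with 0.5 of a region covered. Leaving out a library left the Irf5 calls of the others unchanged, so those runs could not alter the order. The WT-only Irf8 region was lost with equal numbers of peaks. The median rank difference ran from −1.76 to 0.944 points over these settings and had no stable sign, and the median log2 width ratio from −0.0636 to 0.133. Genome shares were not computed under the alternatives. Depth limits every missing call.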

Other observations

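Irf regions seen in a single library were spread over the libraries, with 4 in WT 1, 7 in WT 2, 5 in KO 1 and 4 in KO 2. Over the genome these counts were 5489, 16870, 17310 and 9314. Some regions were shared by 1 WT and 1 KO library alone. For WT 1 they numbered 2 with KO 1 and 1 with KO 2, against 1384 and 965 over the genome. For WT 2 they numbered 6 with KO 1 and 2 with KO 2, against 5951 and 5673. The 6 of WT 2 and KO 1 equalled the WT-only count at Irf genes, while over the genome WT-only regions were fewer, 3542. The co-repressor gene Irf2bp1 had 4 regions, each called in every library. Irf2bp2 had 45 regions, called 31, 41, 40 and 40 times in WT 1, WT 2, KO 1 and KO 2, and Irf2bpl had 39, called 24, 31, 30 and 24 times.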
